A study of Caenorhabditis elegans with 6 samples.

Results

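The nhr genes encode nuclear hormone receptors, transcription factors with a DNA-binding domain of paired zinc fingers and a ligand-binding domain that can take up fats, sterols and other small molecules. Caenorhabditis elegans, a nematode, has far more of them than insects or mammals, and most of the extra ones descend from a receptor like mammalian HNF4. In the worm, receptors of this family are known for switching fat metabolism with feeding, for the response to toxic and bacterial molecules, for moulting and for larval timing. The genes described here are all those in the deposited table whose name starts with nhr- and a number and whose mean normalized count over the 6 libraries was at least 10. They were 88 of the 193 nhr genes in the table, which lists 16262 genes in all. Of the 105 others, the means lay between 0.231 and 9.86. Just above the limit were nhr-65 (10.4), nhr-78 (10.6) and nhr-201 (10.8), and just below it nhr-122 (9.86), nhr-80 (9.84) and nhr-90 (9.82).

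The libraries came from whole young adult worms with LARP-1, an RNA-binding protein, fused at its own locus either to GFP (allele yq636, 3 libraries) or to the peroxidase APEX2 (allele yq637, 3 libraries). Both groups were grown at 20 °C on Escherichia coli OP50 and given biotin-aniline at 3.3 mM for 2 h at 25 °C, then H2O2 for 2 min. APEX2 can couple biotin to nearby molecules under these conditions and GFP cannot. The titles and the design text name an immunoprecipitation, the label protocols describe total RNA with no capture step, and no untagged or unlabelled worms were analysed here. A difference between the groups can therefore lie in the RNA level of a strain or in what was recovered, and these cannot be told apart. In RNA from whole worms, fewer cells of a type and less RNA per cell cannot be told apart either. Whether the libraries of a group are separate cultures is not in the labels. The p-values therefore cover the spread among these libraries, which may be technical.

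Each library held 3824041 to 6414569 reads on the listed genes, of which 5916 to 9704 lay on the 88 nhr genes. The tagged gene larp-1 had 2599.9, 2607 and 2557 normalized counts in the GFP libraries and 2826, 3022 and 2734 in the APEX2 libraries, a log2 difference of 0.14 ± 0.09 that did not pass (adjusted p = 0.30). Errors after ± are standard errors unless named as SD. The adult cuticle collagen gene col-19 was read in every library, as were all 12 listed oocyte markers. Along the second principal component of all tested genes, APEX2 replicate 1 lay at -28.3 and APEX2 replicates 2 and 3 at 18.4 and 17.2.

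The comparison asks which receptor RNAs differed between worms with APEX2 and worms with GFP on LARP-1. Of the 88 nhr genes, 7 were higher with APEX2, 10 were lower and 71 did not pass (limma, Benjamini-Hochberg over all tested genes, threshold 0.05). Among all 10534 tested genes 21.7% were called, 11.6% higher and 10.1% lower. The nhr genes, with 19.3% called, 7.95% higher and 11.4% lower, lay near that background. The receptors that rose were nhr-49, nhr-66, nhr-23, nhr-31, nhr-28, nhr-53 and nhr-137, and those that fell were nhr-2, nhr-88, nhr-119, nhr-97, nhr-79, nhr-173, nhr-32, nhr-61, nhr-126 and nhr-87. Differences are APEX2 minus GFP on the log2(normalized count + 1) scale, which understates changes of genes with few reads. They ran from -1.66 to 1.25 with a median of -0.11, beside 0.02 for all tested genes. Below 0 lay 59.1% of the nhr genes and 47.8% of all tested genes. Above 0 lay 36 of the 88 receptors, beside 52.2% of all tested genes, and no test of that share was made. Called receptors had a median absolute difference of 0.78, beside 0.66 for all called genes. Of the called receptors, 3 moved at least 2-fold, and the share of all called genes that did so was not counted. Without GFP replicate 1, 2 or 3 the receptor calls were 5, 4 or 4 higher and 4, 5 or 4 lower, from 7 and 10. Calls among all tested genes also fell, to 744, 783 or 612 higher and 664, 638 or 550 lower, from 1219 and 1069. Without APEX2 replicate 1 the receptor calls were 8 higher and 9 lower, beside 1310 and 1191 of all tested genes. On recovered reads, edgeR called the same 17 receptors, beside 21% of all tested genes (10.6% higher, 10.4% lower), and DESeq2 called 6 higher and 7 lower, beside 9.65% and 9.06% (18.7% in all). Corrected for exonic length, 6 were higher and 12 lower, beside 10.2% and 9.35% (19.5% in all).

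**Figure D1:**
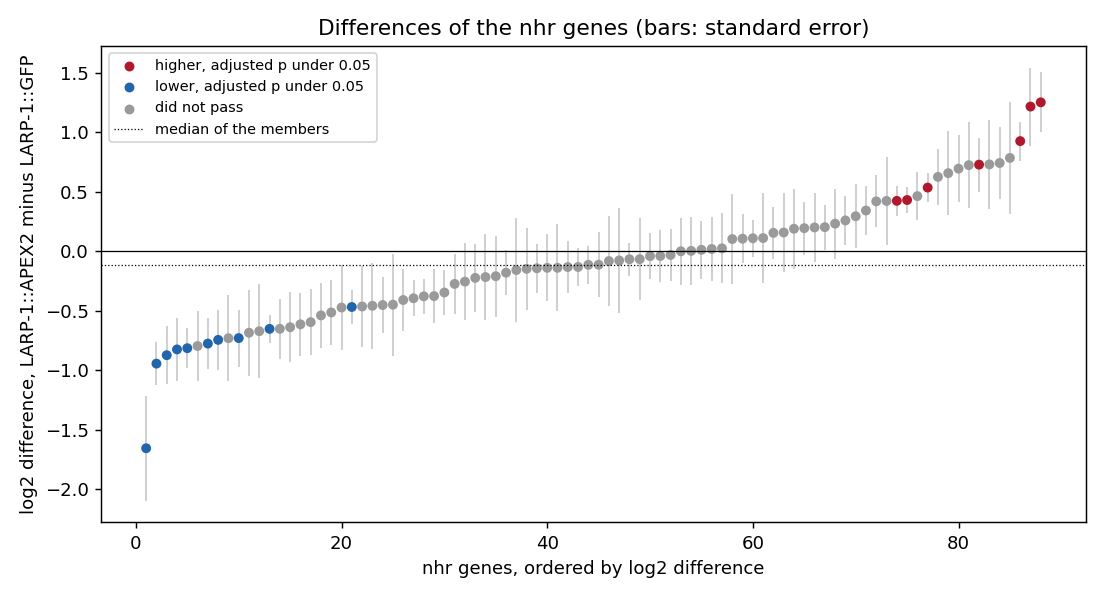
Log2 differences of the 88 nhr genes, LARP-1::APEX2 minus LARP-1::GFP, in order of size, with standard errors as bars. Red points are the 7 genes called higher, blue points the 10 called lower, and the dotted line is the median of -0.11.

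Calls were more frequent among receptors with more reads. Most nhr genes were read little, with a median mean of 34.5 normalized counts against 109 for all tested genes. Of the 57 with a mean from 10 to 50, 3 rose and 4 fell, which is 12.3% beside 11.6% of all tested genes in that range (4.22% higher, 7.41% lower). Of the 31 with a mean of at least 50, 4 rose and 6 fell, which is 32.3% beside 26.8% (15.2% higher, 11.5% lower). Within a group the receptors had a median SD of log2 values of 0.20 in the GFP libraries and 0.32 in the APEX2 libraries. For all tested genes, which had more reads, it was 0.16 and 0.23. Scatter was not compared with genes of the same level. In 32 of the 88 genes the APEX2 and GFP ranges were separate, 12 with APEX2 higher and 20 with APEX2 lower. That is 36.4%, beside 37.4% of all tested genes, where 19.9% were higher and 17.5% lower.

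Per length, nhr-49 had the highest level of the family. Its mean over the 6 libraries was 439.8 normalized counts per kb of exonic sequence. Next came nhr-17 with 301, nhr-23 with 189.7, nhr-88 with 167 and nhr-2 with 106 on the same scale. Among the 5 genes with the highest means not divided by length, nhr-49, nhr-66 and nhr-23 rose, nhr-88 fell and nhr-17 did not pass. The gene nhr-17 had 520.4, 636 and 479 normalized counts with GFP and 499.6, 428 and 325 with APEX2, and its groups overlapped (log2 difference -0.39 ± 0.15, adjusted p = 0.08). It was called lower without APEX2 replicate 1 (-0.53, adjusted p = 0.0076) and under each of 3 rescalings. The exons of nhr-17 share 67 bases with nlp-76 on the same strand. Those 5 genes together took 37.4% to 39.7% of the summed normalized counts of the family in the GFP libraries and 39.7% to 46.1% in the APEX2 libraries. The whole family took 0.157% ± 0.00419 of the reads with GFP and 0.149% ± 0.00320 with APEX2 (SD, n = 3). Its summed normalized counts overlapped between the groups, with 6863 to 7007 with GFP and 6714 to 6971 with APEX2.

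Among receptors of lipid metabolism, nhr-49 and nhr-66 rose. NHR-49 drives fatty acid oxidation and desaturation in the intestine and the response to fasting. The gene nhr-49 (WBGene00003639, chromosome I, 9869651 to 9874680, plus strand, WBcel235) had 741, 809 and 736 normalized counts with GFP and 1335, 1033 and 975 with APEX2. All 3 APEX2 libraries lay above all 3 GFP libraries, APEX2 replicate 1 farthest (log2 difference 0.54 ± 0.12, adjusted p = 0.006). Its call held in each of the 6 fits that leave out 1 library, with 0.40 without APEX2 replicate 1. NHR-66 works with NHR-49 on sphingolipid genes. The gene nhr-66 (WBGene00003656, chromosome IV, 8226331 to 8236602, minus strand) had 341, 302 and 294 with GFP and 359, 454 and 448 with APEX2, a log2 difference of 0.42 ± 0.13 (adjusted p = 0.027). Its groups were separated by a narrow gap, and the call was lost on leaving out GFP replicate 2 or 3 or APEX2 replicate 2 or 3 (adjusted p = 0.10, 0.13, 0.11 and 0.065). It was also lost with equal library totals (0.070), quantile normalization (0.059) and the length correction (0.054). The exons of nhr-66 share 130 bases with genes on the other strand, whose reads cannot be told apart without a stated strand setting.

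The other 5 measured lipid receptors did not pass, and several varied widely within the APEX2 group. The gene nhr-13, whose product also partners NHR-49, had 39.3, 26.9 and 42.3 with GFP and 56.6, 23.3 and 21.4 with APEX2, where replicate 1 was high and replicates 2 and 3 low (-0.21 ± 0.34, adjusted p = 0.71). The gene nhr-76, which acts in fat loss driven by serotonin, had 13.7, 13.4 and 11.4 with GFP and 14.1, 36.4 and 20.1 with APEX2 (0.72 ± 0.36, adjusted p = 0.17). It was called higher in 1 of the 15 alternative fits that tested it, that without APEX2 replicate 1 (1.02, adjusted p = 0.045). The fat storage gene nhr-64 had 36.3, 36.96 and 50.3 with GFP and 35.4, 22.4 and 22.8 with APEX2 (-0.61 ± 0.27, adjusted p = 0.12), and was called lower in 1 fit, without that same library (-0.82, adjusted p = 0.031). For nhr-62, needed for long life under dietary restriction, and nhr-69, which acts in insulin secretion, the differences were -0.08 and 0.01. The oleate synthesis receptor nhr-80, below the limit, had 11.8, 3.36 and 20.6 with GFP and 4.71, 13.1 and 5.53 with APEX2, with overlapping groups.

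RNA of the coactivator that NHR-49 uses was lower with APEX2, while that of NHR-49 was higher. MDT-15 is a Mediator subunit that binds NHR-49 and turns on fatty acid desaturase genes. The gene mdt-15 (WBGene00007016, chromosome III, 5828557 to 5833751, minus strand) had 190.5, 223 and 216 normalized counts with GFP and 90.7, 83.98 and 108 with APEX2 (ratio of means 0.449, log2 difference -1.15 ± 0.16, adjusted p = 0.00021). The lowest GFP library stood well above the highest APEX2 library, and mdt-15 was called in all 16 alternative fits. Of 10 coregulator genes listed with the receptors, mdt-15 fell, 0 rose and 9 did not pass, around a median of 0.03. One of the 9 was cbp-1, a histone acetyltransferase gene, with 1560.2, 1634 and 1457 with GFP and 1876, 1781 and 1532 with APEX2 (0.15 ± 0.10, adjusted p = 0.33).

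Genes that NHR-49, NHR-80 or MDT-15 are known to act on, most of them in fatty acid desaturation and oxidation, moved in both directions. Of 11 tested, 4 rose, 2 fell and 5 did not pass, with a median of 0.32 beside 0.02 for all tested genes. The hydroxyacyl-CoA dehydrogenase gene hacd-1 had 148, 122 and 151 normalized counts with GFP and 365, 402 and 438 with APEX2 (1.51 ± 0.14, adjusted p = 9.2e-06). It was the largest rise of the list, and the groups lay far apart. The stearoyl-CoA desaturase gene fat-7 rose from 174, 146 and 158 to 296, 330.3 and 320.3 (0.99 ± 0.13, adjusted p = 0.00018). The palmitoyl-CoA desaturase gene fat-5 rose by 0.58 ± 0.19 (adjusted p = 0.042), and did not pass when GFP replicate 1, 2 or 3 or APEX2 replicate 1 or 2 was left out (adjusted p = 0.18, 0.065, 0.10, 0.071 and 0.091). It also missed the threshold with edgeR (0.051), DESeq2 (0.088), no filter on low values (0.058), equal library totals (0.063) and the length correction (0.064). The acyl-CoA dehydrogenase gene acdh-2 rose by 0.52 ± 0.13 (adjusted p = 0.0089), and its call was lost on leaving out GFP replicate 1 or 3 (0.053 and 0.062). All APEX2 libraries lay above all GFP libraries for each of these 4 genes.

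The flavin monooxygenase gene fmo-2 fell from 329.9, 437 and 364 normalized counts with GFP to 249, 199 and 214 with APEX2 (-0.77 ± 0.14, adjusted p = 0.0015). The oleate desaturase gene fat-2 fell from 2282, 2412 and 2204 to 1784, 1592 and 1633 (-0.46 ± 0.10, adjusted p = 0.0036). In both, no APEX2 library reached the GFP range. The fasting marker acs-2, an acyl-CoA synthetase gene, had 885, 869 and 817 with GFP and 768, 1049.8 and 942 with APEX2 with overlapping groups (0.09 ± 0.12, adjusted p = 0.63). The second stearoyl-CoA desaturase gene fat-6, close in sequence to fat-7, had 3765, 3834 and 4064 with GFP and 4674, 3229.6 and 2945 with APEX2, where APEX2 replicate 1 was high and the others low (-0.13 ± 0.14, adjusted p = 0.55). Without APEX2 replicate 1 it was called lower (-0.33, adjusted p = 0.012). Reads can be split between fat-6 and fat-7, which makes the value of each uncertain.

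**Figure D2:**
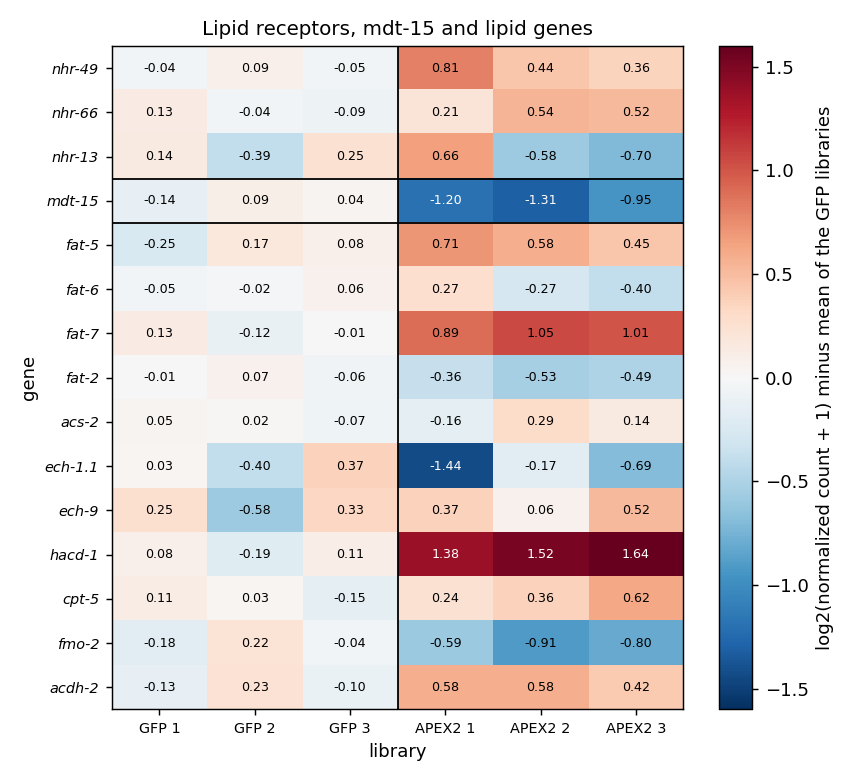
Log2(normalized count + 1) in each library minus the mean of the 3 GFP libraries. Rows are 3 lipid receptors (top), the coactivator gene mdt-15 (middle) and 11 tested genes that NHR-49, NHR-80 or MDT-15 act on (bottom). In the APEX2 libraries nhr-49, hacd-1 and fat-7 are above 0 in all 3, mdt-15, fmo-2 and fat-2 are below 0 in all 3, and nhr-13 and fat-6 differ in sign between libraries.

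The summed level of the intestinal markers was lower in every APEX2 library, while single markers moved in both directions. Of 11 tested, 2 rose, the actin gene act-5 and the peptide transporter gene pept-1, 2 fell, the protease genes cpr-1 and asp-1, and 7 did not pass. Their summed level was 63556 to 70207 normalized counts with GFP and 46650.2 to 62095 with APEX2, most of it from asp-1, and no listed marker was at 0 in a library. The intestinal regulators elt-2 and elt-7 had log2 differences of -0.41 and 0.15 and did not pass. The part of intestinal RNA content in the lipid results was not tested.

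Among receptors conserved between worms, insects and mammals, nhr-23 rose and 6 others that were measured did not pass. NHR-23, like insect DHR3 and mammalian ROR, drives each moult from the epidermis. The gene nhr-23 (WBGene00003622, chromosome I, 7214745 to 7221299, plus strand) had 439, 381 and 405 normalized counts with GFP and 542, 571 and 538 with APEX2. The groups did not overlap and the APEX2 libraries lay close together (log2 difference 0.43 ± 0.11, adjusted p = 0.011). Its call was lost on leaving out GFP replicate 2 or 3 (adjusted p = 0.062 and 0.055), where the difference was still at least 0.38. The list median of the 7 was -0.07.

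The other measured conserved receptors had differences from -0.73 to 0.0036. The Ftz-F1 orthologue nhr-25, which also acts in moulting, had 27.5, 20.2 and 26.3 with GFP and 18.9, 38.3 and 14.5 with APEX2, where replicate 2 was above and replicates 1 and 3 below the GFP range (-0.15 ± 0.34, adjusted p = 0.80). The sterol and xenobiotic receptor gene nhr-8 had 41.2, 26.9 and 42.3 with GFP and 16.5, 14 and 41.5 with APEX2 (-0.73 ± 0.36, adjusted p = 0.17). Replicates 1 and 2 were low and replicate 3 was not, and without APEX2 replicate 3 nhr-8 was called lower (-1.19, adjusted p = 0.013). Its exons share bases with 2 other genes. The germ cell nuclear factor orthologue nhr-91 had a difference of -0.47 and the larval timing gene nhr-85 one of -0.03. The DHR78 orthologue nhr-41 had 0.0036 and nhr-48, a relative of the steroid receptor DAF-12, had -0.07. The exons of nhr-85 share 835 bases with npr-14, a gene on the other strand, so its value is uncertain. The NR4A receptor gene nhr-6 and the tailless orthologue nhr-67 lay below the limit, with means of 8.55 and 3.47.

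Genes of the moult were measured beside nhr-23 and nhr-25. Of 8 tested, 2 rose, 0 fell and 6 did not pass, around a median of 0.18. The gene mlt-10, needed for shedding the old cuticle, rose from 189, 187 and 186 normalized counts with GFP to 459.6, 384 and 328 with APEX2 (1.04 ± 0.14, adjusted p = 0.00018). The cuticle collagen gene bli-1 rose from 7.85, 10.1 and 6.85 to 25.9, 41.1 and 25.6 (1.76 ± 0.33, adjusted p = 0.002). In both, the groups did not overlap, and both were called in every fit in which they were tested. Of 10 tested epidermal markers other than nhr-23, 3 rose, bli-1 among them, 0 fell and 7 did not pass. With the untested rol-6, they summed to 6066 to 6969 normalized counts with GFP and 6028 to 7408 with APEX2, most of it from col-19, and none was at 0 in a library. Epidermal RNA content as a part of the nhr-23 result was not tested.

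The receptor of the early embryo fell. The gene nhr-2 (WBGene00003601, chromosome I, 5818474 to 5821134, minus strand), which is active in early embryos, had 248, 243 and 274 normalized counts with GFP and 95.5, 159.6 and 151 with APEX2. All APEX2 libraries were lower, replicate 1 most (log2 difference -0.94 ± 0.18, adjusted p = 0.0022). This call held in each fit that leaves out 1 library, with -0.71 without APEX2 replicate 1. The embryo and muscle receptor gene nhr-40 had 66.8, 61.6 and 73.1 with GFP and 54.2, 98.9 and 84.4 with APEX2 (0.19 ± 0.22, adjusted p = 0.58), and nhr-60, of seam cells and vulva, lay below the limit at a mean of 3.84. Of 12 oocyte markers, 5 rose, 1 fell and 6 did not pass. They summed to 42017 to 45508 normalized counts with GFP and 45502 to 53510.1 with APEX2. Of 12 germline markers, 3 rose, 2 fell and 7 did not pass, with sums of 17265 to 18356 and 18565 to 20257. The germline sum was higher in every APEX2 library, and the oocyte sums overlapped slightly. None of these 24 markers was at 0 in a library. How many embryos the worms held was not measured, and its part in the nhr-2 result was not tested.

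The receptors that sense vitamin B12 status did not pass, while several enzyme genes they are known to act on rose. NHR-10 and NHR-68 together turn on the propionate shunt, the route that breaks down propionate when vitamin B12 is short. The gene nhr-10 had 77.6, 68.3 and 79.95 normalized counts with GFP and 55.4, 57.9 and 63.7 with APEX2, lower in every APEX2 library (-0.35 ± 0.19, adjusted p = 0.21). The gene nhr-68 had 43.2, 53.8 and 45.7 with GFP and 45.96, 63.5 and 50.5 with APEX2 with overlapping groups (0.15 ± 0.22, adjusted p = 0.66). Of 5 shunt genes, 3 rose, 0 fell and 2 did not pass, around a median of 0.51. The acyl-CoA dehydrogenase gene acdh-1 rose from 1867, 2003 and 1928 to 2631, 2661 and 2989 (0.51 ± 0.10, adjusted p = 0.0019). The dehydrogenase gene hphd-1 rose from 923, 877 and 804 to 1279, 1511 and 1549.8 (0.73 ± 0.11, adjusted p = 0.00037). The hydratase gene ech-6 rose by 0.51 ± 0.14 (adjusted p = 0.015), and did not pass with GFP replicate 2 or 3 or APEX2 replicate 2 left out (0.065, 0.083 and 0.063), nor with quantile normalization (0.051). The last enzyme gene of the route, alh-8, had -0.02.

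NHR-114 activates methionine cycle genes and guards the germline on poor diets. The gene nhr-114 had 46.1, 54.9 and 49.1 normalized counts with GFP and 73.1, 51.3 and 68.5 with APEX2, where replicate 2 lay inside the GFP range (0.34 ± 0.21, adjusted p = 0.28). Of 6 genes of the methionine cycle, 3 rose, 0 fell and 3 did not pass, around a median of 0.34. The S-adenosylmethionine synthetase gene sams-1 rose from 662, 720.2 and 541 to 1188, 1343 and 1321 (1.01 ± 0.12, adjusted p = 6.3e-05). The methylenetetrahydrofolate reductase gene mthf-1 rose by 0.61 ± 0.12 (adjusted p = 0.0024) and the S-adenosylhomocysteine hydrolase gene ahcy-1 by 0.44 ± 0.10 (adjusted p = 0.0056). For these 3 genes no APEX2 library overlapped the GFP range, and each was called in every fit tried. The methionine synthase gene metr-1 had 0.25 ± 0.12 (adjusted p = 0.17) and was called higher in 1 fit, without APEX2 replicate 3 (0.37, adjusted p = 0.038).

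None of the 3 measured receptors of chemicals, metals and oxygen passed. The gene nhr-86, which senses a toxic bacterial metabolite, had 118, 122 and 132 normalized counts with GFP and 103, 107 and 131 with APEX2 (-0.13 ± 0.16, adjusted p = 0.61). The iron and immunity receptor gene nhr-14 had 71.7, 63.8 and 65.1 with GFP and 64.8, 80.2 and 87.9 with APEX2 (0.20 ± 0.19, adjusted p = 0.49). Both overlapped between the groups. The gene nhr-57, a known target of the hypoxia factor HIF-1, had 87.4, 63.8 and 75.4 with GFP and 45.96, 73.7 and 124 with APEX2. Its APEX2 libraries spread on both sides of the GFP range, and the log2 difference was 0.00026 ± 0.28 (adjusted p = 1.00). Of 6 genes of the HIF-1 pathway, 1 fell, the cyanoalanine synthase gene cysl-2 (-0.41 ± 0.13, adjusted p = 0.034), 0 rose and 5 did not pass. The cysl-2 call was lost on leaving out GFP replicate 1, 2 or 3 or APEX2 replicate 2 or 3 (adjusted p = 0.14, 0.14, 0.052, 0.092 and 0.075). The drug response receptor gene nhr-176 lay below the limit, with a mean of 8.48.

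Receptors of the same superfamily that carry other names were read beside the nhr genes. The steroid receptor gene daf-12, which sets the choice between reproductive growth and the dauer larva, had 106, 124 and 93.7 normalized counts with GFP and 148, 124 and 113 with APEX2 (0.25 ± 0.17, adjusted p = 0.33). The gene sex-1, which takes part in counting X chromosomes, had 76.6, 89.6 and 75.4 with GFP and 96.6, 116 and 94.1 with APEX2 (0.34 ± 0.17, adjusted p = 0.19). Neither passed, although every APEX2 library of sex-1 was above every GFP library. The neuronal receptor genes unc-55, fax-1 and odr-7 had means under 10. Of 4 tested genes of steroid hormone synthesis and sterol transport, the sterol transporter gene ncr-1 fell from 123, 118 and 107 to 64.8, 55.1 and 76.1 (-0.83 ± 0.18, adjusted p = 0.005), 0 rose and 3 did not pass. No APEX2 library of ncr-1 reached the GFP range, and it was called in every fit tried.

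The other 13 called receptors were outside the lists of known roles. One of them, nhr-31, is known to act in the excretory cell, the kidney-like cell of the worm. The gene nhr-31 (WBGene00003625, chromosome IV, 8022655 to 8029513, minus strand) had 91.3, 72.8 and 92.5 normalized counts with GFP and 179, 154 and 156 with APEX2 (log2 difference 0.93 ± 0.16, adjusted p = 0.0013). The groups were far apart, and nhr-31 was called in every fit tried. The gene nhr-137 (WBGene00003727, chromosome X, 6661772 to 6669011, minus strand) had 18.7, 21.3 and 15.99 with GFP and 49.5, 41.1 and 46.4 with APEX2, the largest rise of the family (1.25 ± 0.25, adjusted p = 0.0029). It too was called in every fit in which it was tested. The gene nhr-53 (WBGene00003643, chromosome V, 15700606 to 15702363, minus strand) had 7.85, 16.8 and 14.8 with GFP and 35.4, 27.1 and 29.8 with APEX2 (1.22 ± 0.33, adjusted p = 0.016), resting on 8, 15 and 13 reads with GFP and 30, 29 and 43 with APEX2. GFP replicate 1 was the lowest, and without it the call ended (0.91, adjusted p = 0.078). The gene nhr-28 (WBGene00003624, chromosome X, 16354976 to 16359650, plus strand) had 32.4, 38.1 and 28.6 with GFP and 47.1, 60.7 and 58.1 with APEX2 (0.73 ± 0.23, adjusted p = 0.033). Its call ended without any of the 3 GFP libraries (adjusted p = 0.094, 0.052 and 0.14) and without APEX2 replicate 2 or 3 (0.099 and 0.066), as well as with DESeq2 (0.071) and equal library totals (0.052), and its exons share 149 bases with a noncoding RNA gene on the other strand.

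Of the receptors that fell, nhr-88 and nhr-119, like nhr-2, were called in every fit tried. The gene nhr-88 (WBGene00003678, chromosome II, 2976639 to 2987023, plus strand) had 649, 623 and 651 normalized counts with GFP, within a narrow range, and 481, 370.5 and 379.8 with APEX2 (log2 difference -0.65 ± 0.12, adjusted p = 0.0016). The gene nhr-119 (WBGene00003709, chromosome II, 2794016 to 2800600, minus strand) had 139, 151 and 139 with GFP and 91.9, 69.1 and 83.7 with APEX2 (-0.81 ± 0.17, adjusted p = 0.0033). In both genes the groups lay well apart. The gene nhr-97 (WBGene00003687, chromosome IV, 9757641 to 9764499, plus strand) had 327, 290.1 and 302 with GFP and 185, 223 and 261 with APEX2 (-0.47 ± 0.14, adjusted p = 0.029), lowest in APEX2 replicate 1. Its call was lost on leaving out GFP replicate 1, 2 or 3 or APEX2 replicate 1 or 2 (adjusted p = 0.12, 0.068, 0.098, 0.055 and 0.068), and its exons share 21 bases with a piRNA gene on the other strand.

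The remaining falls were in receptors with fewer reads, and none of these calls held in all the fits without 1 library. The gene nhr-79 (WBGene00003669, chromosome V, 19207676 to 19211895, minus strand) had 67.7, 52.6 and 82.2 normalized counts with GFP and 27.1, 40.1 and 42.2 with APEX2 (-0.87 ± 0.24, adjusted p = 0.02). The gene nhr-32 (WBGene00003626, chromosome X, 13251964 to 13256284, plus strand) had 76.6, 69.4 and 61.7 with GFP and 40.1, 33.6 and 47.05 with APEX2 (-0.78 ± 0.21, adjusted p = 0.018). No APEX2 library of either reached the GFP range. The call of nhr-79 was lost on leaving out GFP replicate 1 or 3 (adjusted p = 0.074 and 0.13), and that of nhr-32 without GFP replicate 1 or 2 or APEX2 replicate 2 (0.091, 0.069 and 0.062). The gene nhr-61 (WBGene00003651, chromosome II, 14816136 to 14818543, minus strand) had 51.1, 69.4 and 47.97 with GFP and 29.5, 41.1 and 29.8 with APEX2 (-0.73 ± 0.24, adjusted p = 0.042). Its call ended in 5 of the 6 fits without 1 library, those without GFP replicate 1, 2 or 3 or APEX2 replicate 1 or 3 (highest adjusted p = 0.20), and with no filter on low values (0.052), DESeq2 (0.062) and quantile normalization (0.053), and its exons share 5 bases with a coding gene on the other strand. The gene nhr-87 (WBGene00003677, chromosome IV, 1624029 to 1626705, plus strand) had the largest fall of the family, from 13.7, 15.7 and 26.3 to 3.54, 3.73 and 8.99 (-1.66 ± 0.44, adjusted p = 0.015). It rests on 14, 14 and 23 reads with GFP and 3, 4 and 13 with APEX2, and the call was lost on leaving out GFP replicate 3 (-1.39, adjusted p = 0.11).

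**Figure D3:**
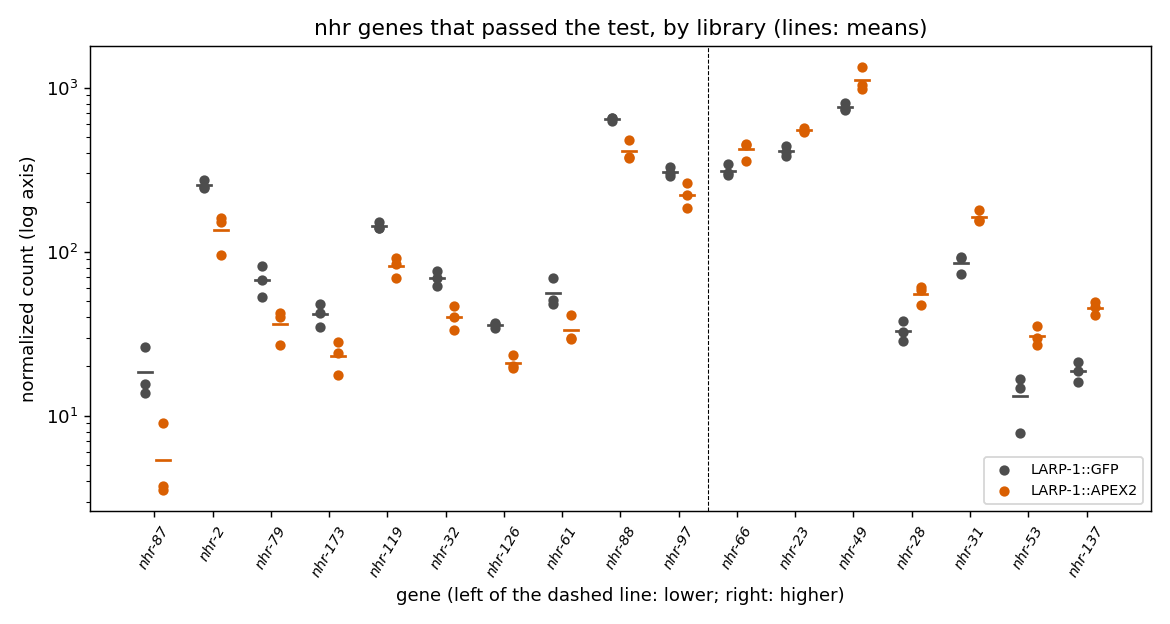
Normalized counts (log axis) of the 17 nhr genes that passed the test in each of the 3 LARP-1::GFP libraries (grey) and 3 LARP-1::APEX2 libraries (orange), with lines at the means. In each of the 17 genes the groups do not overlap, and nhr-49 has the highest values in both groups.

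The nhr genes are spread unevenly over the genome. Chromosome V holds 123 of the 193 listed nhr genes, but 30.1% of those reached the limit, against 88.9% of the 18 on chromosome X and 77.8% of the 9 on chromosome II. Of the 37 described genes on chromosome V, 1 rose and 2 fell, which is 8.11% beside 23.9% of all tested genes of that chromosome. Most of these 37 had a mean under 50. Of all tested genes with a mean from 10 to 50, on any chromosome, 11.6% were called. On chromosome II, 0 of 7 rose and 3 fell, with a median of -0.65 and a range from -0.81 to -0.13. The background on chromosome II was 21.5%. Chromosomes I, IV and X held 3, 4 and 4 called receptors of 7, 18 and 16, beside backgrounds of 21.8%, 21.7% and 20.2%, and chromosome III held 0 of 3, beside 20.5%. These are descriptions of small numbers, with no test of a difference between chromosomes.

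Many nhr genes sit side by side in runs. Where neighbouring listed nhr genes less than 10 kb apart were joined, 28 runs formed, which held 33 of the 88 described genes. The run with the most of them spans 2210510 to 2235180 on chromosome V and holds 9 listed nhr genes among 10 annotated coding genes. All 7 of its described genes had a difference below 0 in the main fit. In other fits nhr-128 turned to 0.0100 with quantile normalization and reached 0.17 with 1 library left out. The median of the 7 was -0.54, and 1 was called. That gene, nhr-126 (WBGene00003716, chromosome V, 2229081 to 2230984, plus strand), had 36.3, 36.96 and 34.3 normalized counts with GFP and 20.03, 19.6 and 23.5 with APEX2, within narrow ranges (-0.74 ± 0.25, adjusted p = 0.046). Its call was lost on leaving out GFP replicate 1, 2 or 3 or APEX2 replicate 1 or 2 (adjusted p = 0.13, 0.14, 0.12, 0.062 and 0.096), and with no filter on low values (0.073), DESeq2 (0.12) and quantile normalization (0.063). Its neighbours had differences of -0.46 for nhr-133, -0.64 for nhr-56, -0.07 for nhr-128, -0.80 for nhr-18, -0.54 for nhr-134 and -0.45 for nhr-96, none of which passed. Reads can be split between genes close in sequence, and sequence identity within the run was not examined, so single values there are uncertain. The run was singled out after its values had been seen.

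**Figure D4:**
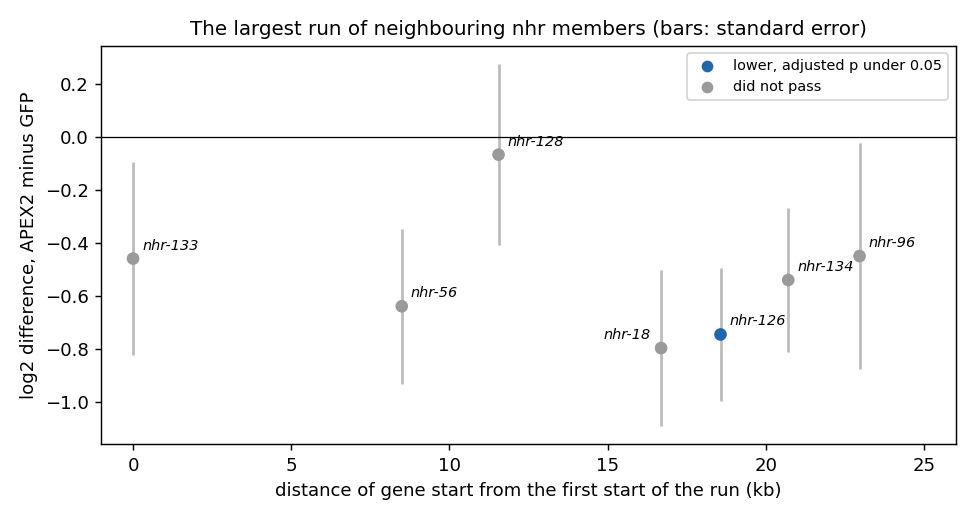
Log2 differences, LARP-1::APEX2 minus LARP-1::GFP, of the 7 described nhr genes in the run on chromosome V, against the distance of each gene start from the first one in kb, with standard errors as bars. All 7 points lie below 0, and nhr-126 (blue) is the one that passed the test. In other fits nhr-128 was at 0.0100 with quantile normalization and reached 0.17 with 1 library left out.

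Of the other 8 runs with at least 2 described genes, the 3 that held a called one are given here, with no test of a difference between neighbours. Of the 5 without a call, 2 held differences of both signs. On chromosome X, nhr-173 (WBGene00016975, chromosome X, 6655528 to 6660376, plus strand) fell and the next listed nhr gene, nhr-137, rose. The gene nhr-173 had 48.1, 34.7 and 42.3 normalized counts with GFP and 17.7, 27.99 and 24.2 with APEX2 (-0.82 ± 0.26, adjusted p = 0.038). The call of nhr-173 was lost on leaving out GFP replicate 1, 2 or 3 or APEX2 replicate 1 (adjusted p = 0.16, 0.060, 0.13 and 0.078) and with DESeq2 (0.071), while that of nhr-137 held in all of these. On chromosome I the run of nhr-49 and nhr-69 spans 11.9 kb, and nhr-49 rose while nhr-69 had 0.01. On chromosome IV, nhr-87 fell and nhr-274, in the same run, had -0.11.

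Other families of transcription factors were counted in the same fit for scale. Of 26 tested homeobox genes named ceh, 1 rose and 0 fell, with a median difference of 0.21. Of 10 leucine zipper genes named zip, 3 rose and 1 fell, with a median of 0.21. The helix-loop-helix genes named hlh, the forkhead genes fkh and the T-box genes tbx had 6 tested members each, with 0, 0 and 0 higher and 1, 0 and 0 lower. Their medians were 0.13, 0.19 and 0.08. The nhr median of -0.11 was the one below 0 among these 6 families, and no test of that order was made.

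Neuronal, muscle, pharyngeal, sperm and somatic gonad markers were read as a check on the makeup of the worms. Their sums cover every listed marker found in the table, including those with a mean under 10, which were not tested. Of 10 tested neuronal markers 0 rose and 0 fell, and all 12 summed to 1807 to 1839 normalized counts with GFP and 1843 to 1953 with APEX2. Of 11 tested body wall muscle markers 2 rose and 2 fell, and all 12 summed to 21631 to 24425 and 24683 to 28866. The neuronal and the muscle sums were both higher in every APEX2 library than in any GFP library, each by a narrow gap. Of 9 tested pharyngeal markers 3 rose and 0 fell, and all 10 summed to 1031 to 1211 and 1065 to 1428. Of 9 tested somatic gonad markers 2 rose and 0 fell, and all 10 summed to 1289 to 1374 and 1329 to 1824. Of 9 tested sperm markers 0 rose and 0 fell, and all 12 summed to 990.2 to 1108 and 815 to 931. The sperm sum was lower in every APEX2 library and the pharyngeal and gonad sums overlapped. In at least 1 library the sperm genes spe-9 and spe-11 and the neuronal gene unc-47 were at 0. The part of cell makeup in the differences of the receptors was not tested.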

How the data were processed

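RNA from 6 libraries of whole young adult worms, 3 LARP-1::GFP and 3 LARP-1::APEX2, was compared. Trim Galore, Bowtie, STAR, featureCounts, DESeq2 and the build ce11 are named in the submitters' processing notes. Their versions and settings, strand use included, are not stated in these notes or labels. The authors deposited normalized counts, a signal per gene that is a read count divided by 1 size factor per library. This was read from the values: divided by what 1 read is worth in each library, 100% came out whole to within 0.001. Reads outside the listed genes are unknown, so the totals are not the full depth, and without molecular identifiers PCR copies count as molecules.

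Gene names were looked up in Ensembl's WBcel235 annotation (the assembly that UCSC calls ce11), with 15691 matched by symbol, 488 by sequence name and 83 not at all. All 88 receptors matched by symbol. Coordinates are 1-based. No genome or protein sequence was used. Genes with a mean of at least 10 were tested (10534), as log2(value + 1), by limma 3.58.1 (R 4.3.3; variance prior trended and robust), two-sided, with Benjamini-Hochberg adjustment over all tested genes. This log-scale test was the main one, since the values are not raw counts. The recovered reads were also tested by edgeR 4.0.16 (quasi-likelihood, TMM) and DESeq2 1.42.0. Further alternatives were other filters and pseudocounts, equal library totals, quantile normalization, removal of a trend with exonic length, a replicate block and leaving out each library. The main fit, the replicate block, edgeR, DESeq2, quantile normalization and the length correction were tested on simulated counts. Changes were planted there in genes with a mean of at least 50. The other alternatives were not tested in this way. Libraries of 1 group differed beyond counting noise (chi-square per degree of freedom 2.87 to 12.0).

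The receptors, role lists and other gene lists were chosen with earlier results of these data known, so no test was made over a list. Named were the receptors on the role lists, the called ones (at most 12 in each direction), the 5 with the highest mean, those nearest the limit, and list genes that passed. The run of neighbours, the genes in it, and list genes that did not pass but are given with values were chosen after their values were seen.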

Additional observations from a re-analysis of the deposited data

How the results depend on the processing

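All 17 called receptors kept the sign of their difference under each of the 16 alternatives in which they were tested, and 6 of them, nhr-49, nhr-2, nhr-88, nhr-119, nhr-31 and nhr-137, were called in every one. On the recovered reads edgeR called the same 17 (7 higher, 10 lower) and DESeq2 13 of them (6 higher, 7 lower). A mean of at least 50 left 31 receptors, of which 4 were called higher and 6 lower, beside 1142 and 851 of all genes tested there. Leaving out 1 library gave 4 to 8 higher and 4 to 10 lower, and among all tested genes 612 to 1310 higher and 550 to 1191 lower. The median of the receptors stayed below 0 throughout, from -0.17 to -0.05, and was -0.13 to -0.06 with 1 library left out. Removing the trend with exonic length gave 6 higher and 12 lower, beside 1069 and 980 of all tested genes, and in that fit nhr-66 was not called (adjusted p = 0.054). Equal library totals gave 5 and 11, beside 965 and 1219 of all tested genes, where nhr-17 was also called lower (-0.45, adjusted p = 0.032). A further 10 receptors were called under at least 1 alternative, and the matching number of all tested genes was not counted.

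Same-numbered replicates did not deviate together across the groups (correlations of deviations -0.16, -0.08 and 0.02), so the numbers were not taken as pairs. With the replicate block 5 receptors were higher and 8 lower, and 984 and 883 of all tested genes. Genes called in the report but not with the block were nhr-66 (adjusted p = 0.056), nhr-28 (0.052), nhr-173 (0.062), nhr-126 (0.080), fat-5 (0.072) and cysl-2 (0.058). Differences near 0 changed sign in some fits, with the cause not tested. For nhr-41 they were -0.073 with edgeR, -0.062 with DESeq2, -0.052 with equal totals and -0.051 corrected for length, and -0.30 to 0.19 with 1 library left out. For nhr-57 they were -0.00044 with a pseudocount of 0.5, -0.055 with equal totals and -0.058 corrected for length, and -0.36 to 0.35 with 1 library left out. For nhr-69 they were -0.043 with equal totals and -0.045 corrected for length, and -0.18 to 0.21 with 1 library left out. For nhr-62 they were 0.021 with edgeR and 0.075 with quantile normalization, and -0.41 to 0.35 with 1 library left out. With quantile normalization nhr-85 had 0.0061, nhr-128 0.0100, acs-2 -0.0078 and cbp-1 -0.023. With 1 library left out the ranges were -0.12 to 0.11 for nhr-85, -0.28 to 0.17 for nhr-128, -0.53 to 0.13 for nhr-25, -0.64 to 0.036 for nhr-13, -0.0092 to 0.22 for acs-2 and -0.20 to 0.11 for alh-8. Depth limits the family most at the low end, where 57 of the 88 receptors had a mean under 50.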
